A study of Mus musculus with 7 samples.

Results

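The genes described here are 10 mouse genes of maintenance DNA methylation and heterochromatin, chosen by name: Hells, Uhrf1, Cdca7, Dnmt1, Dnmt3a, Ezh2, Suv39h1, Suv39h2, Cbx5 and Lmnb1. All 10 were found by Ensembl identifier among the 15531 genes tested in the comparison of RNA from fibroblasts with and without a deletion at the end of chromosome 4. RNA was taken from 7 independent lines of primary mouse embryonic fibroblasts (MEFs), which are cultures of the minced embryo body without the head. The 4 Df/+Bl6 lines carried the engineered deletion chromosome Df, from 129S5/SvEvBrd ES cells, and an intact homologue from C57BL/6J. The 3 lines of the control genotype, +129/+Bl6, had an intact homologue from each of these strains, so that both genotypes share an F1 background. All lines came from embryos at day 13.5 and were harvested 10 hours after confluency at passage 4. The Df/+Bl6 embryos came from crosses of Df/Dp chimeric males with C57BL/6J females. The ES cells behind these males carried Df and a second engineered chromosome, Dp. For the controls the study names F1 +129/+Bl6 crosses. Df/Dp cells have no intact 129S5 chromosome 4 to pass on, so the crosses of the genotypes differ. The litter and the sex of each embryo are not given in the sources used here.

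The values are the authors' mean normalized counts of each genotype, in one table for both alleles together (the combined table) and one table for each allele. By the methods, each table holds only the genes past an FDR of 0.05, and a gene in a table is called listed here. No value per line could be used, so none of the values below has an SD or standard error, whether single lines overlap between genotypes is unknown, and the sequencing depth per line is unknown. Fold changes are Df/+Bl6 over +129/+Bl6, computed here from the means. The tables call the genotypes A and B, and A was taken as Df/+Bl6 from the study's account of the sign of its fold changes. Of the genes between Rere and Ski, which bracket the deletion, 42 were tested and 27 were listed, all 27 of them lower in Df/+Bl6. None of the 10 genes described here lies on chromosome 4.

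When DNA is copied, the new strand lacks methyl groups, and the pattern of the old strand has to be written again. Uhrf1 binds the hemimethylated sites that replication leaves and recruits Dnmt1, the methyltransferase that restores them, while Hells, a chromatin remodeller, works with its zinc finger partner Cdca7 to open nucleosomal DNA for methylation. Heterochromatin carries further marks that also have to be passed on: Suv39h1 and Suv39h2 methylate histone H3 at lysine 9, Cbx5 (HP1 alpha) binds that mark, Ezh2 methylates lysine 27, and lamin B1, the product of Lmnb1, forms part of the lamina that holds heterochromatin at the nuclear edge. Many of these genes are known to be expressed most in dividing cells.

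Of the 10 genes, 9 were listed in the combined table and all 9 were higher in Df/+Bl6 MEFs. Over all genes tested, 8.67% were listed, 5.13% as higher and 3.54% as lower in Df/+Bl6. The 10 genes were chosen with earlier results of these data known, so their count is no test against these shares. The largest difference was that of Suv39h2, at 3.46-fold, and the smallest that of Dnmt1, at 1.49-fold. The median log2 fold change of the 9 genes was 0.97, beside 0.80 for the 796 genes listed as higher, and 6 of the 9 lay above 0.80. A gene had to differ to be listed, so these medians describe the listed genes and are no test of the group. Dnmt3a, the de novo methyltransferase, was tested and not listed, and no value of it was used.

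**Figure D1:**
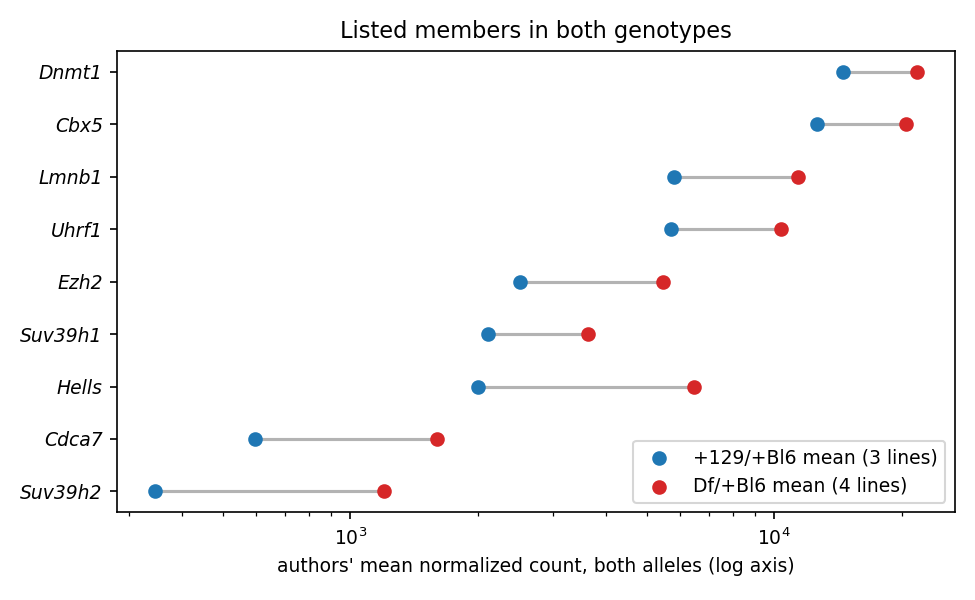
Mean normalized count of each listed gene in +129/+Bl6 (blue) and Df/+Bl6 MEFs (red) on a log axis, each point the authors' mean over the lines of a genotype, with no error bar since the lines behind it were not told apart. The Df/+Bl6 mean lies to the right for all 9 genes, with the widest gap for Suv39h2 (3.46-fold) and the narrowest for Dnmt1 (1.49-fold).

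The sequence around an annotated start of several of these genes holds letters of the kind bound by E2F factors, which are known to drive genes of DNA replication. They are shown as a description only, and their part in the differences was not tested. RefSeq promoters of GRCm38.p6, from 250 bases before to 50 bases after an annotated start, were searched on both strands for TTTCCCGC, TTTGGCGC and TTTCGCGC, and 9 of the 10 genes, all but Lmnb1, matched the promoter table, with 16 starts in all. The stretches of 30 bases below run 5′ to 3′ on the strand of the gene, with the matching letters in capitals. Where the letters were found on the other strand, their reverse complement is in capitals.
Hells, chr19:38930917-38930946, plus strand: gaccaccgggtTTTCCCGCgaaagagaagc
Cdca7, chr2:72476137-72476166, plus strand: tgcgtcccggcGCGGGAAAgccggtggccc
Uhrf1, chr17:56304117-56304146, plus strand: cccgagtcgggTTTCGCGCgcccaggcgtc
Dnmt1, chr9:20952824-20952853, minus strand: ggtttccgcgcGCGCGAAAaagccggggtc
Ezh2, chr6:47595009-47595038, minus strand: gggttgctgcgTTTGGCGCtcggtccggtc

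The letters lay from 62 to 55 bases before the start in Hells, from 71 to 64 before it in Cdca7 and at 4 to 11 bases after it in Ezh2. In Uhrf1 and Dnmt1 they were found at one annotated start only, the second of 2 and the third of 3. Another match in Dnmt1, 34 to 41 bases after the same start, is not shown. Of the 5 stretches, only that of Cdca7 lies before the whole RefSeq gene. Those of Hells, Uhrf1, Dnmt1 and Ezh2 lie inside the outermost bounds of the gene, downstream of its first base, and those of Hells and Dnmt1 also lie within a coding transcript of the GENCODE annotation. Thus 5 of the 9 genes in the promoter table (55.6%) held such letters, beside 13.7% of the 555 listed higher genes that matched it, 2.79% of the 394 listed lower genes, 3.89% of the 10115 tested genes and 1.84% of all 32851 promoters. By starts, the share was 5 of 16 (31.2%). The shares were not matched for the number of starts per gene or for base composition. The genes were also chosen with earlier results of these data known. Suv39h2, Suv39h1, Cbx5 and Dnmt3a had no such letters in these windows.

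Further letters, those of the CHR element (TTTGAA) and the CCAAT box (CCAAT), known from promoters of mitotic genes, were searched on both strands in the same windows. TTTGAA occurred in Dnmt1 and Suv39h2, 2 of the 9 genes in the promoter table (22.2%), beside 25.4% of listed higher genes, 14.2% of tested genes and 17.9% of all promoters. By starts its share was 2 of 16 (12.5%). CCAAT occurred in 5 of these 9 (55.6%), namely Uhrf1, Dnmt1, Ezh2, Suv39h1 and Cbx5, beside 54.1% of listed higher genes, 42.6% of tested genes and 37.4% of all promoters. By starts its share was 7 of 16 (43.8%). A match is a run of letters, and binding was not measured.

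Hells and Cdca7, the remodeller and its partner, were both among the larger differences. The mean normalized count of Hells (ENSMUSG00000025001, chromosome 19, 38930262 to 38970470 on GRCm38) was 6472 in Df/+Bl6 and 2005 in +129/+Bl6, a log2 fold change of 1.69. It ranked 16 by fold change among the 796 genes listed as higher. The mean of Cdca7 (ENSMUSG00000055612, chromosome 2, 72476187 to 72486892) was 1598 against 595.4, a log2 fold change of 1.42 and rank 50. Its relative Cdca7l was not among the genes tested.

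The pair that reads and copies the methyl mark showed smaller fold changes on higher levels. Uhrf1 (ENSMUSG00000001228, chromosome 17, 56303337 to 56323486) had a mean of 10373 in Df/+Bl6 and 5703 in +129/+Bl6, a log2 fold change of 0.86. Dnmt1 (ENSMUSG00000004099, chromosome 9, 20907206 to 20959888) had means of 21683 and 14529, a log2 fold change of 0.58 and rank 719 of the 796. Dnmt1 thus had the smallest fold change of the 9 genes and the second largest difference in normalized count, 7154. The value of Uhrf1 has a limit in how reads were assigned: 44.3% of its longest transcript (1590 bases) is matched at 98% identity or more by another annotated gene, Gm5648, which is not among the genes tested. Reads with more than one best location were discarded.

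The other genes of DNA methylation were taken as a list of 19. Of the 17 tested, 2 were listed, both higher in Df/+Bl6, beside the 5.13% of all tested genes listed as higher. They were Uhrf2, a paralogue of Uhrf1, with means of 10117 and 6623 (log2 fold change 0.61), and Mbd4, a glycosylase that repairs mismatches at methylated sites, with 666.8 and 364.1 (0.87). The de novo enzymes Dnmt3a and Dnmt3b, the oxidising enzymes Tet1, Tet2 and Tet3 and the readers Mbd1, Mbd2 and Mbd3 were tested and not listed. This does not show that they were unchanged, nor that they differ from Dnmt1, since such differences were not tested.

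Both enzymes that methylate lysine 9 in pericentric heterochromatin were higher in Df/+Bl6, the less abundant one by more. Suv39h2 (ENSMUSG00000026646, chromosome 2, 3455815 to 3474986) had a mean of 1200 in Df/+Bl6 and 346.7 in +129/+Bl6, a log2 fold change of 1.79, rank 8 of the 796 genes. Suv39h1 (ENSMUSG00000039231, chromosome X, 8061171 to 8074760) had means of 3646 and 2107, a log2 fold change of 0.79. Per kilobase of the longest annotated transcript, the mean of Suv39h1 was 676.3 in +129/+Bl6 against 80.1 for Suv39h2, and 1170 against 277.4 in Df/+Bl6. Both overlap a gene on the opposite strand, Dclre1c for Suv39h2 (281 bases of the transcript, 6.49%) and Gm14820 for Suv39h1 (563 bases, 18.1%). The libraries were stranded, but whether strand was used in counting is not given in the sources used here. Dclre1c was among the genes tested, while Gm14820 and a further gene opposite Suv39h2, Gm13184, were not.

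The reader of that mark, Cbx5 (ENSMUSG00000009575, chromosome 15, 103191546 to 103239904), had a mean of 20487 in Df/+Bl6 and 12614 in +129/+Bl6. Its log2 fold change was 0.70, and its difference in normalized count, 7873, was the largest of the 9 genes. Of its HP1 relatives, Cbx3 was listed with the same log2 fold change, 0.70 (3865 against 2375), and Cbx1 was tested and not listed. Over all tested genes, 5.13% were listed as higher. In the list of 21 other genes of lysine 9 and H4K20 methylation, all tested, 4 were listed and all 4 were higher. Besides Cbx3 these were Smchd1, a protein of the inactive X chromosome (11577 against 6069, log2 fold change 0.93), Atrx, a remodeller that loads a histone variant into heterochromatin (21452 against 13166, 0.70), and Mphosph8, a reader of methylated lysine 9 (4732 against 3164, 0.58). The methyltransferases Setdb1, Ehmt1 and Ehmt2 were tested and not listed.

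Ezh2, the catalytic subunit of Polycomb repressive complex 2, had a mean of 5462 in Df/+Bl6 and 2515 in +129/+Bl6, a log2 fold change of 1.12. The gene (ENSMUSG00000029687) lies on chromosome 6 at 47530274 to 47595270 and overlaps Gm17629, a gene on the opposite strand that was not tested. Of 12 other genes of the complex or its demethylases, all tested, 3 were listed as higher, beside 5.13% of all tested genes. These were the core subunit Suz12 (6761 against 3850, log2 fold change 0.81) and the accessory subunits Mtf2 (1898 against 935.7, 1.02) and Phf19 (1148 against 743.1, 0.63). Eed, the third core subunit, and Ezh1, the paralogue of Ezh2, were tested and not listed. In Polycomb repressive complex 1, 2 of 17 tested genes were listed, both higher, namely Cbx2 (log2 fold change 0.82) and Bmi1 (0.63).

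Lmnb1 (ENSMUSG00000024590, chromosome 18, 56707813 to 56753424) had a mean of 11363 in Df/+Bl6 and 5787 in +129/+Bl6, a log2 fold change of 0.97, the median of the 9 genes. The other lamins, Lmna and Lmnb2, were tested and not listed. Beside 5.13% of all tested genes, 2 of 14 other genes of the lamina and nuclear envelope, all tested, were listed as higher. They were Tmpo, which encodes the lamina-associated polypeptides (11765 against 6410, log2 fold change 0.88), and Lbr, the lamin B receptor, which also binds HP1 (4636 against 2976, 0.64).

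Per kilobase of transcript the order of the 9 genes was the same in both genotypes. Dnmt1 was the highest, at 4119 normalized counts per kilobase in Df/+Bl6 and 2760 in +129/+Bl6, and Lmnb1 came next, at 3997 and 2036. Below them followed Uhrf1, Cbx5, Ezh2, Suv39h1, Hells, Cdca7 and Suv39h2, the lowest. Which neighbours in this order differ beyond the spread of the lines cannot be said. Dnmt1 and Lmnb1 are close in Df/+Bl6, at 4119 and 3997. Uhrf1 and Cbx5 are close in +129/+Bl6, at 1590 and 1433, as are Suv39h1 and Hells in Df/+Bl6, at 1170 and 1103. The lengths are from an annotation on NCBI37, while the authors counted on transcripts of GRCm38, which also limits this order.

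The fold change was larger where the control level was lower. Over the 9 genes, Spearman's rho between the +129/+Bl6 mean and the log2 fold change was -0.87, and over the 796 genes listed as higher it was -0.56. The fold change shares the control mean with the x axis, and the smallest fold change in the table differed with the level. Among the 199 of the 796 genes with the lowest control means (22.2 to 762.7), which include Suv39h2 and Cdca7, the smallest log2 fold change was 0.58 and the median 1.04. Among the 199 with the highest (4397 and above), which include Uhrf1, Lmnb1, Cbx5 and Dnmt1, these were 0.47 and 0.64. Suv39h2 and Cdca7 lay above the median of genes at their level, as did Uhrf1, Lmnb1 and Cbx5, but Dnmt1 did not. Hells, Ezh2 and Suv39h1, among the 199 genes with control means from 1902 to 4376, lay above the median there, 0.73. At a limit of 1.5-fold, 8 of the 9 genes were counted as higher, beside 4.53% of all tested genes, since Dnmt1 fell just short at 1.49. At 2-fold, 4 were counted, Suv39h2, Hells, Cdca7 and Ezh2, beside 1.45%, with Lmnb1 just short at 1.96.

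**Figure D2:**
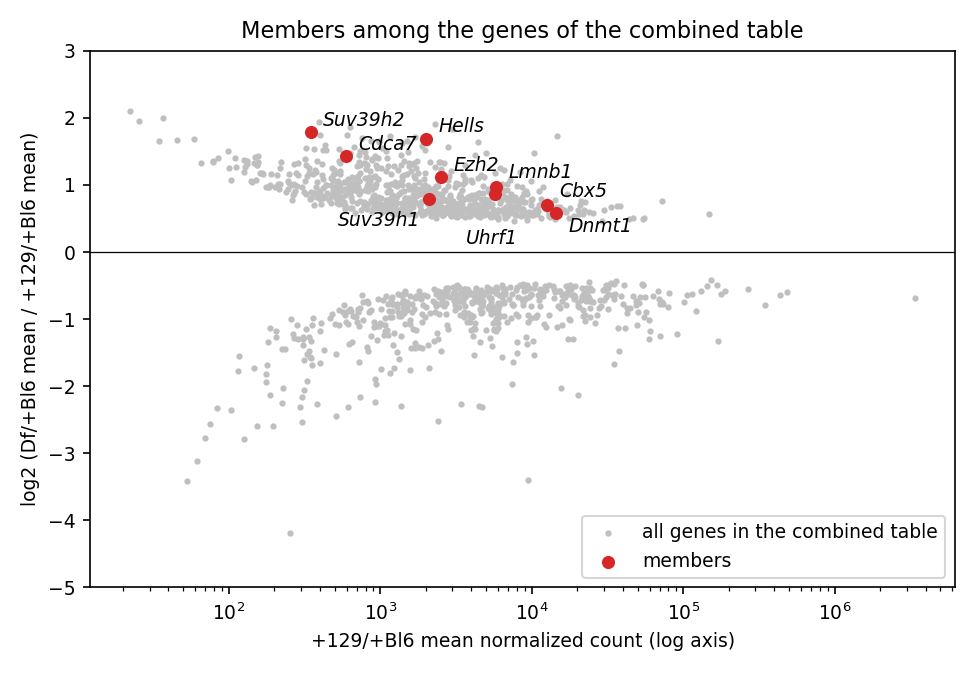
Log2 fold change against the +129/+Bl6 mean (log axis) for each of the 1346 genes in the combined table (grey) and the 9 listed genes described here (red). All red points lie above 0, from 0.58 for Dnmt1 to 1.79 for Suv39h2, and the genes with low control means lie higher.

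The allelic tables hold 2 of the genes, Suv39h2 and Dnmt1, and both were higher in Df/+Bl6 at each allele. For Suv39h2 the mean of the 129S5 allele was 69.0 in Df/+Bl6 and 18.0 in +129/+Bl6, a log2 fold change of 1.94. That of the C57BL/6J allele was 212.3 and 55.8, a log2 fold change of 1.93. These means are small, and with 50 added to each the log2 fold changes of Suv39h2 were 0.81 (129S5) and 1.31 (C57BL/6J). For Dnmt1 the 129S5 allele had 1008 and 631.2 (log2 fold change 0.67) and the C57BL/6J allele 2301 and 1502 (0.62). The alleles were counted in the same lines, and the difference between their fold changes was not tested. The tables were normalized separately, so levels are not compared between alleles.

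The 7 other listed genes appear in neither allelic table. Which genes were tested for an allele is not given, and a gene without a strain difference in its transcript gives no allelic count, so nothing follows for them. Of the 1346 genes of the combined table, 16.3% are also in the 129S5 table and 21.4% in the C57BL/6J table, beside 2 of 9 here.

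**Figure D3:**
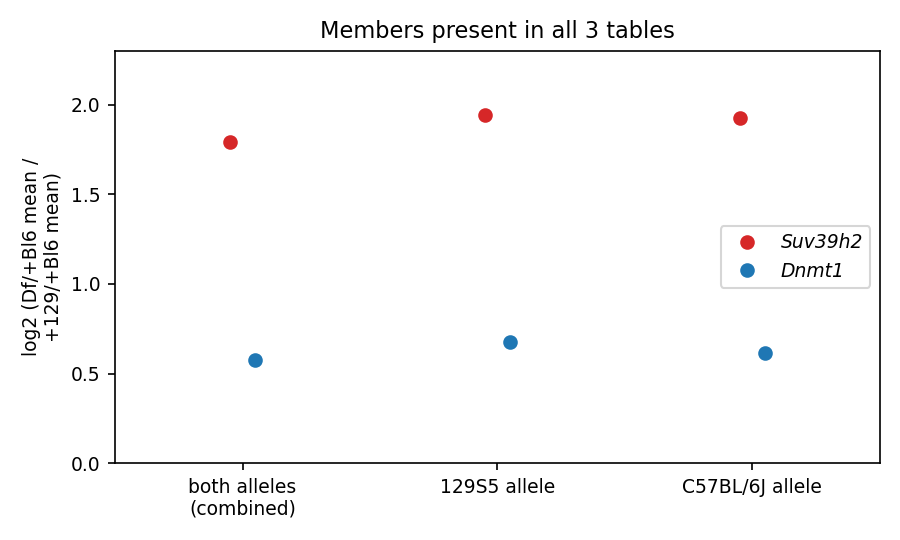
Log2 fold change of Suv39h2 (red) and Dnmt1 (blue) in the combined table and in the table of each allele, each point from a pair of genotype means. The points of Suv39h2 lie from 1.79 to 1.94 and those of Dnmt1 from 0.58 to 0.67.

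Most of the genes examined that act beside these at the replication fork were also listed as higher. Of 10 genes of replication-coupled chromatin assembly, all tested, 9 were listed and all 9 were higher, with a median log2 fold change of 0.70. The largest were Hat1, which acetylates new histone H4 (0.98), Chaf1b, a subunit of the CAF-1 histone chaperone (0.86), the chaperone Asf1a (0.85) and the remodeller Smarca5 (0.79). Fen1 was tested and not listed. Over all 6 lists of other chromatin genes, this one included, 22 of 91 tested genes were listed as higher and 0 as lower, with a median of 0.70. Of these 22 genes, 9 came from the 10 genes of replication-coupled assembly. The share listed as higher over all tested genes was 5.13%.

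Genes of the cell cycle were higher in the same comparison. Of 21 tested S phase genes, 18 were listed, all higher, with a median log2 fold change of 0.94. The largest were the cyclin Ccne2 (1.64), Pola1 and Prim1 of the primase complex (1.49 and 1.32) and the licensing factor Cdc6 (1.30). Cdt1, Gins2 and E2f1, which encodes an E2F factor, were tested and not listed. All 20 genes of the G2/M phase were listed as higher, with a median of 1.11, led by the kinetochore proteins Cenpf (1.91) and Cenpe (1.83), Mki67 (1.72) and the checkpoint kinase Bub1 (1.62). Over all tested genes, 5.13% were listed as higher, and both lists were chosen with earlier results of these data known. Summed over the listed genes, the S phase list went from 87437 normalized counts in +129/+Bl6 to 162197 in Df/+Bl6, and the G2/M list from 90143 to 221258. Only genes listed as higher enter these sums, so a rise was fixed by that choice. The largest parts of the G2/M rise were those of Mki67 (33710) and Top2a (18390). In bulk RNA a larger share of cycling cells cannot be told apart from more RNA of these genes per cell, and the part of this in the differences of the 9 genes was not tested.

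**Figure D4:**
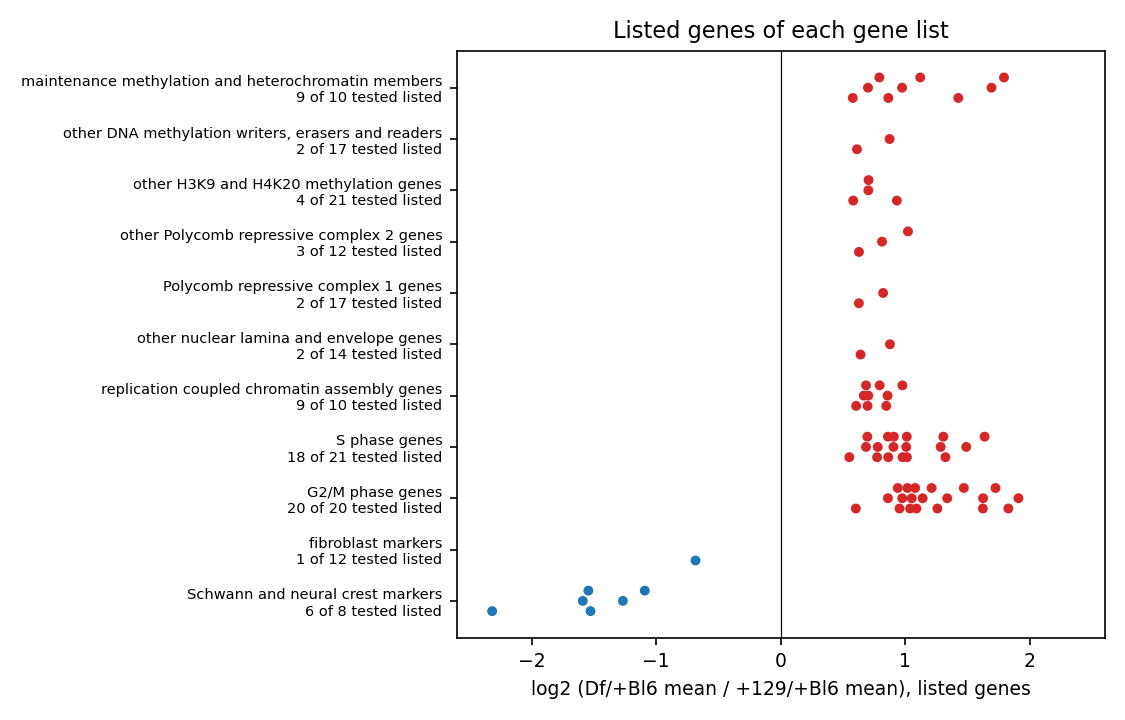
Log2 fold change of each listed gene (point, red higher and blue lower in Df/+Bl6) in each gene list with a listed member, with the number listed and tested beside the name; points are spread vertically only to keep them apart. The 9 genes described here reach from 0.58 to 1.79 and the listed S phase genes from 0.55 to 1.64, and Schwann and neural crest markers are the one list with several genes below 0.

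Whether the cells express fibroblast markers at a high level was not checked, since only listed genes have a level here. All 12 fibroblast markers were among the genes tested, and 1 was listed, beside 8.67% of all tested genes. It was the matrix protein Fn1, lower in Df/+Bl6 (log2 fold change -0.69). Schwann cell and neural crest markers were lower in Df/+Bl6, with 6 of 8 listed, beside 3.54% of all tested genes listed as lower. Among the 6 were S100b (-2.32), Ngfr (-1.59), Foxd3 (-1.54), Sox10 (-1.53) and Erbb3 (-1.09). The summed mean of the listed markers was 937.3 normalized counts in Df/+Bl6 and 2879 in +129/+Bl6. Only markers listed as lower enter this sum, so a fall was fixed by that choice. The part of these markers in the differences of the 9 genes was not tested. Of 32 markers of macrophages, endothelium, skeletal muscle and epithelium, 26 were tested and 0 were listed, beside the same 8.67%. With so few markers, these counts do not show that the share of any cell type was unchanged.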

How the data were processed

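RNA was sequenced from 7 MEF lines as stranded, paired-end polyA+ libraries. Per the labels and the methods, the authors aligned reads with GSNAP to a C57BL/6J transcriptome (GRCm38/mm10) and a 129S5 version of it, without mismatches, on the longest transcript of each gene, and compared genotypes with DESeq. The deposited signal values used here are counts that the authors normalized with DESeq and averaged per genotype, after leaving out genes with under 10 reads per allele. Fold change, log2 fold change and p-value columns of the authors' tables were not used. A further deposited table has 9 columns of values without names; these were left out, since no line could be matched to a column, and its identifiers gave the genes tested. The planned test between lines was therefore not run.

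The 10 genes and all lists were chosen with earlier results of these data known. From each other list, all listed genes are named where at most 6 are listed, otherwise the 4 with the largest fold change, except for a gene that is not reported here, and genes named as not listed were chosen after the tables were read. Of 197 list genes, 4 were matched through RefSeq synonyms. Transcript lengths and overlaps come from GENCODE on NCBI37, positions and promoters from RefSeq on GRCm38.p6. Shared stretches of at least 100 bases were found with blast 2.17.0. Python 3.11.15, pandas 2.3.3 and scipy 1.17.1 were used, and the counting functions were tested on simulated data. Alternatives were pseudocounts of 1 and 50, limits of 1.5-fold and 2-fold, and a minimum mean of 100.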

Additional observations from a re-analysis of the deposited data

How the results depend on the processing

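A pseudocount added to both means cannot turn a direction, so only the size of the fold changes was compared. With no spread between lines, a log2 fold change that changed by over 10% was counted as moved, and a count of genes if it changed by more than 1.5 times. The median log2 fold change of the 9 genes in the combined table was 0.97 with pseudocounts of 1 and 50. A pseudocount of 50 lowered the median of Suv39h2 and Dnmt1 from 1.31 to 0.72 for the 129S5 allele and from 1.27 to 0.95 for the C57BL/6J allele, since the allelic means of Suv39h2 are small. A limit of 2-fold left 4 of the 9 genes, 1 of the 22 other chromatin genes (Mtf2), 8 of the 18 S phase genes and 15 of the 20 G2/M genes. A limit of 1.5-fold left 8 of the 9 genes, and a minimum mean of 100 left 4 of the 6 Schwann and neural crest markers. Values per line, their depth and leaving out single lines were not analysed here, so how far any one line decides these means is unknown.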
